A study of Mus musculus with 10 samples.

Results

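10 genes of lipid-laden and phagocytic macrophages were followed through 2 sets of mouse RNA-seq data: Gpnmb, Lgals3, Cd68, Lyz2, Spp1, Lpl, Apoe, Trem2, Ctsd and Cd36. The 10 members were selected on earlier results of these data, in which several of them stood higher in Apc-deleted than in wild-type cultures of oligodendrocyte precursor cells (OPCs). Their values in that comparison are therefore given as a description, with no test. All 10 were found by symbol, among 19333 genes of the OPC table and among 22064 genes of each table of sorted immune cells.

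OPCs are the dividing progenitors of myelinating oligodendrocytes, and Apc is a scaffold of the complex that destroys beta-catenin and so restrains Wnt signalling. The OPC cultures comprised 3 libraries from Olig2-Cre:Apc-fl/fl mice, in which Cre driven by Olig2 deletes floxed Apc, and 3 from Apc-fl/fl littermates, the wild-type controls, which carry the floxed alleles too. These cells were purified by immunopanning, capture on antibody-coated dishes, and kept in PDGFAA, a mitogen of these cells, for 3 days. The sorted cells came from spinal cords of mice with the genotype Pdgfra-CreER:Apc-fl/fl, taken on day 18 of experimental autoimmune encephalomyelitis (EAE), an inflammatory model of multiple sclerosis. 3 libraries held cells sorted as CD11b+ Gr-1+ NK1.1+ and labelled cytotoxic macrophage, and 1 held CD4+ cells labelled Th1. All sorted libraries share 1 genotype, so the effect of Apc deletion on immune cells was not compared. Nothing in the labels says whether libraries of a group came from separate animals, so SDs and p-values cover variation from library to library alone, and that may be technical.

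Macrophages that clear myelin and dying cells take up large amounts of cholesterol and fatty acids, degrade them in lysosomes, and store or export the rest. Several members belong to this work. Trem2, a lipid-sensing receptor, and Cd36, a scavenger receptor and fatty acid transporter, act at the cell surface. Cd68 is a heavily glycosylated lysosomal membrane protein, Ctsd is the lysosomal aspartic protease cathepsin D, and Lyz2 is the myeloid lysozyme. Apoe carries exported cholesterol, Lpl releases fatty acids from lipoproteins, and Gpnmb, Lgals3 (galectin-3) and Spp1 (osteopontin) are produced strongly by lipid-loaded phagocytes and by microglia around damaged tissue.

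For the OPC cultures the values came from the authors' deposited table of 1 comparison, which gives a mean normalized count, a log2 fold change and its standard error (SE) per gene, and no value per library. The genotype levels quoted here are those implied by that mean and fold change with 3 libraries a genotype. The table names no numerator, so its sign was set by 4 Wnt target genes, which were then higher with Apc deleted in the authors' deposited table: Notum by 4.90, Sp5 by 2.10, Lef1 by 1.89 and Axin2 by 1.01 on the log2 scale. Apc itself was listed in the authors' deposited table at a log2 fold change of -0.14 (SE 0.13, adjusted p = 0.999993), so its RNA level does not check the genotype labels. The macrophage libraries held between 23174908 and 23564215 estimated reads over 13655 to 13739 genes, against 3051730 reads over 6550 genes in the library labelled Th1.

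Markers of cell types did not all match the sort labels. In the macrophage libraries 12 neutrophil markers summed to between 433708 and 436795 TPM (reads divided by the length of the transcript and set to the same total in each library), with S100a8 alone at 310396 ± 2006 TPM (SD, n = 3). The 16 macrophage and monocyte markers summed to between 6857 and 7167 TPM there, most of it Ly6c2 at 6376 ± 160 TPM (SD, n = 3). The 8 NK cell markers summed to between 25.6 and 27.2 TPM. In the library labelled Th1, 9 of 10 T cell markers, Cd3e, Cd3d, Cd3g and Cd4 among them, had no read, and only Lck was present, at 66.3 TPM. In that library the macrophage and monocyte markers summed to 2992 TPM and the neutrophil markers to 24481 TPM. Ly6c2 had no read there, so the macrophage and monocyte sums of the 2 groups do not compare the other markers. The names macrophage and Th1 are used below only as the labels of these libraries. In bulk RNA fewer cells of a type and less RNA per cell cannot be told apart.

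In the Apc-deleted OPC cultures the authors' deposited table listed all 10 members above 0 on the log2 scale, from 0.02 for Apoe to 4.49 for Gpnmb, with a median of 1.45. Over all genes 50.3% lay above 0 in the authors' deposited table, with a median of 0.0014. The authors' deposited table called 5 of the members, namely Gpnmb, Lyz2, Lgals3, Cd68 and Cd36, at a threshold of 0.05 on its adjusted p, and called 0.393% of all genes higher (76 of 19333). Since these values chose the members, nothing is read from that count.

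**Figure D1:**
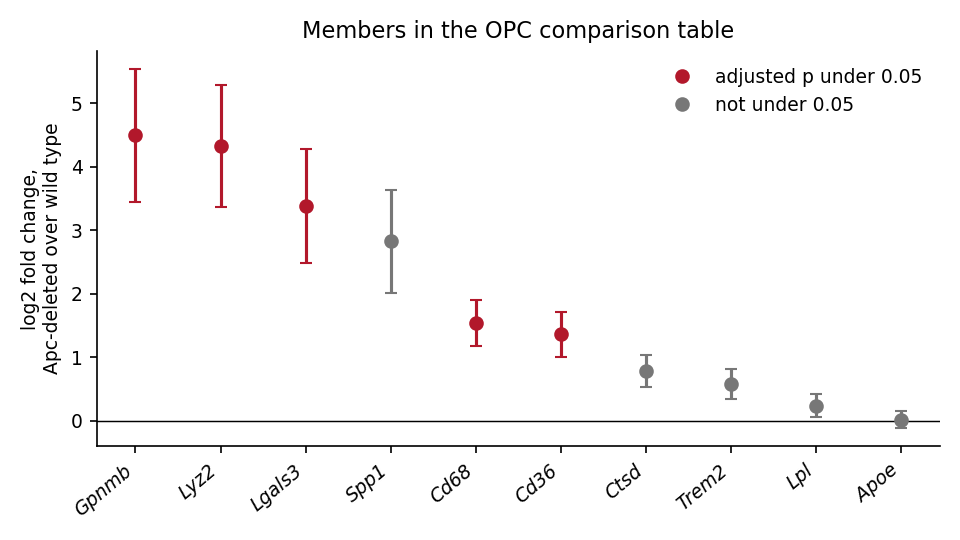
Log2 fold change of each member in the authors' deposited OPC table, Apc-deleted over wild type, with bars of 1 SE. The 4 members on the left lie between 2.83 and 4.49, and Lpl and Apoe on the right lie within 0.24 of 0.

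Gpnmb, a transmembrane glycoprotein of late endosomes and lysosomes (chr6:49036546-49070929, GRCm38, plus strand), had the largest difference of the members. The authors' deposited table gave 4.49 (SE 1.05, adjusted p = 0.00560), 22.5-fold, which placed it sixth by fold among all genes and implied a level of 75.3 normalized counts in wild-type and 1694 in Apc-deleted cultures. Lyz2 (chr10:117277331-117282321, minus strand) followed in the authors' deposited table at 4.33 (SE 0.96, adjusted p = 0.00243), 20.1-fold, from an implied 78.1 to 1568 normalized counts.

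The promoters of the members, called or not, were examined for letters of 3 known motifs in the 250 bases before the transcription start (RefSeq, GRCm38.p6). 9 of the 10 members matched an entry, all but Lpl. The motif of TCF/LEF factors, which bind DNA with beta-catenin, was searched as CTTTGAT and CTTTGAA on both strands and occurred in 0 of 9 members and in 8.63% of 27025 genes. The myeloid PU.1 motif GAGGAAGT, on both strands, occurred in 1 member, Spp1, and in 2.79% of genes. The E-box bound by MITF and TFEB, regulators of lysosomal genes, was searched as TCACGTG and TCACATG on both strands and occurred in 1 member, Ctsd, and in 7.40% of genes. A match is a run of letters and not a measured site, and no match says only that these letters are not in this window. Shown 5′ to 3′ on the gene's strand are the windows of the pair with the largest differences, Gpnmb (chr6:49036268-49036517, plus) and Lyz2 (chr10:117282273-117282522, minus), which hold none of the motifs, and those with a match in capitals, Spp1 (chr5:104434861-104435110, plus; first base 113 before the start) and Ctsd (chr7:142387828-142388077, minus). In Ctsd the first capitals begin 245 bases before the start, and the second run, at 99 and 98 bases, is 2 overlapping matches, 1 on each strand. Starts here are those of RefSeq, and the windows of Lyz2 and Ctsd reach into the gene spans printed in the text, which are of GENCODE. The second run of Ctsd lies within that span.
Gpnmb: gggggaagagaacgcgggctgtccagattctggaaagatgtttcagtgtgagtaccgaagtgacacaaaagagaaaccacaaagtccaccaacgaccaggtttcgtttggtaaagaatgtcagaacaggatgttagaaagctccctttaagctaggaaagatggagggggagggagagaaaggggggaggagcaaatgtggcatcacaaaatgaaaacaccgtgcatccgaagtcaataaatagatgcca
Lyz2: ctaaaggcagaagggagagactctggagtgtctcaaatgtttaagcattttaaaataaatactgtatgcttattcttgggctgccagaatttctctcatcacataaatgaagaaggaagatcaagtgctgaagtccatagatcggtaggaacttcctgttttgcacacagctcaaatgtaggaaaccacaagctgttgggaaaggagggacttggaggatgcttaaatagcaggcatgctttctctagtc
Spp1: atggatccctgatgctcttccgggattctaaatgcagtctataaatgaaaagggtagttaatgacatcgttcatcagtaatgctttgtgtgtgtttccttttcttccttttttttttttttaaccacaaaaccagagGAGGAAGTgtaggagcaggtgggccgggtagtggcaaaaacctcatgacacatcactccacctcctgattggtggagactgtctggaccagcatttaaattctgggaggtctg
Ctsd: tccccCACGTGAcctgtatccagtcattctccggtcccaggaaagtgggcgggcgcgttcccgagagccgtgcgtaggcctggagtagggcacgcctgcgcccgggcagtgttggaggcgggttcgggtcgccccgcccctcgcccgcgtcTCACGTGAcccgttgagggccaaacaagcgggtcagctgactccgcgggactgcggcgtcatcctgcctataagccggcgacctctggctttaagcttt

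Of the secreted and lectin members, Lgals3, which binds galactose-bearing glycans on damaged lysosomes and cell surfaces (chr14:47367751-47386160, plus strand), was listed in the authors' deposited table at 3.38 (SE 0.90, adjusted p = 0.0357), from an implied 30.2 to 314 normalized counts. Spp1 (chr5:104435118-104441050, plus strand), a secreted ligand of integrins and CD44, stood at 2.83 in the authors' deposited table (SE 0.81), 7.10-fold, from an implied 42.6 to 303 normalized counts, with an adjusted p of 0.0830. The fold of Spp1 was thus larger than those of Cd68 and Cd36, which passed the threshold in the authors' deposited table with smaller SEs. For Cd68 (chr11:69664213-69666153, minus strand) the authors' deposited table gave 1.54 (SE 0.36, adjusted p = 0.00729), from an implied 115 to 333 normalized counts. For Cd36 (chr5:17781690-17888801, minus strand) the authors' deposited table gave 1.36 (SE 0.36, adjusted p = 0.0284), from an implied 25.9 to 66.5 normalized counts.

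The remaining 4 members did not pass the threshold. Ctsd (chr7:142375911-142388038, minus strand) stood at 0.78 in the authors' deposited table (SE 0.25, adjusted p = 0.228). Since Ctsd was abundant, that fold implied, from the authors' deposited table, 6915 normalized counts in wild-type and 11863 in Apc-deleted cultures. Trem2 (chr17:48346401-48354147, plus strand) was listed at 0.58 (SE 0.24, adjusted p = 0.806) in the authors' deposited table. For Lpl (chr8:68880491-68907448, plus strand) a 95% interval from the SE in the authors' deposited table ran from -0.12 to 0.60 around 0.24. Apoe (chr7:19696109-19699188, minus strand), at an implied 8810 and 8917 normalized counts, had an interval from -0.25 to 0.29 around 0.02 by the authors' deposited table, which leaves out a change of the size listed for Cd36 or any larger one.

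Levels of different genes are comparable only per length, so the implied levels were divided by the length of all annotated exons of each gene joined. On these lengths the members stood in a different order in each genotype. In wild-type cultures Apoe, at 4121 normalized counts per exon kilobase implied by the authors' deposited table, and Ctsd, at 2941, stood far above Cd68 at 91.3 and Lpl at 77.1, with Lyz2 at 59.3, Spp1 at 25.9, Trem2 at 23.5, Lgals3 at 16.3, Gpnmb at 11.6 and Cd36 lowest at 7.21. In Apc-deleted cultures the authors' deposited table implied 5046 for Ctsd, 4171 for Apoe and 1191 for Lyz2, then 265 for Cd68, 260 for Gpnmb, 184 for Spp1, 169 for Lgals3, 91.1 for Lpl, 35.2 for Trem2 and 18.5 for Cd36. On these lengths Lyz2, Spp1, Lgals3 and Gpnmb moved from below Lpl to above it, and Apoe and Ctsd changed places. No value per library gives these orders an error. Joined exons can be longer than the transcript made (10.5 kilobases for Lpl and 4.95 for Trem2). The orders therefore depend on the length chosen, and no other length was tried.

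**Figure D2:**
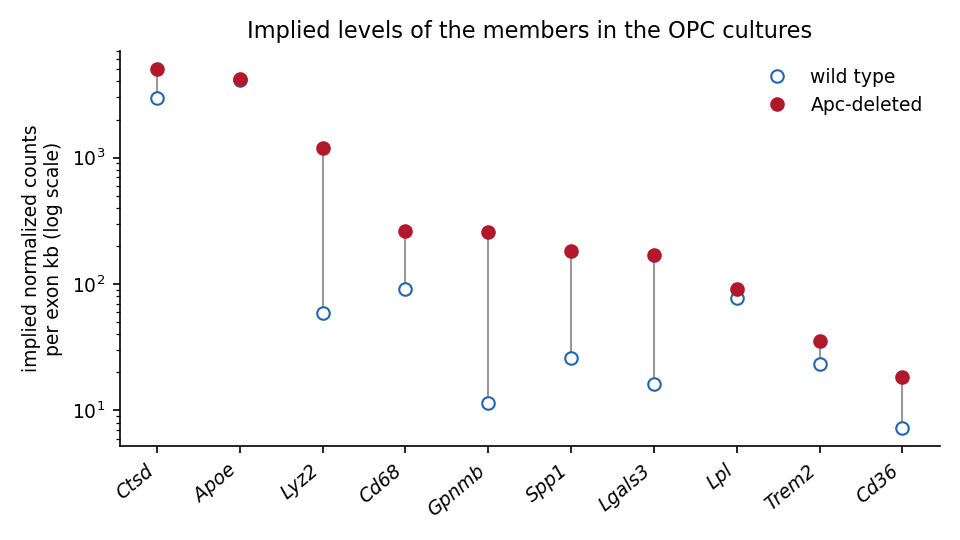
Implied normalized counts per exon kilobase (log axis) of each member in wild-type (open) and Apc-deleted (filled) OPC cultures, from the authors' deposited table. Lyz2 goes from 59.3 to 1191 and Gpnmb from 11.6 to 260, while both points of Apoe lie together at 4121 and 4171.

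The members with the largest folds also had the largest errors. The SE of Gpnmb in the authors' deposited table was 7.90 times the median SE of the 200 genes nearest to it in mean normalized count, the highest such ratio among all genes. The ratio was 7.12 for Lyz2, 4.63 for Lgals3, 4.18 for Spp1 and 2.11 for Ctsd in the authors' deposited table, and between 1.14 and 1.98 for Apoe, Cd36, Trem2, Lpl and Cd68. A ratio over 2 was found for 5 of 10 members and for 1.07% of all genes in the authors' deposited table (206 genes). Under a negative binomial model with 3 libraries a genotype, the SE in the authors' deposited table implies a coefficient of variation between libraries of 1 genotype of 88.6% for Gpnmb, 81.4% for Lyz2, 75.2% for Lgals3 and 68.0% for Spp1, against 11.6% for Apoe and a median of 17.7% over all genes. Under that model libraries of 1 genotype differed widely in the 4 genes with the largest folds, and whether 1 culture carried most of the difference cannot be read from the authors' deposited table.

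**Figure D3:**
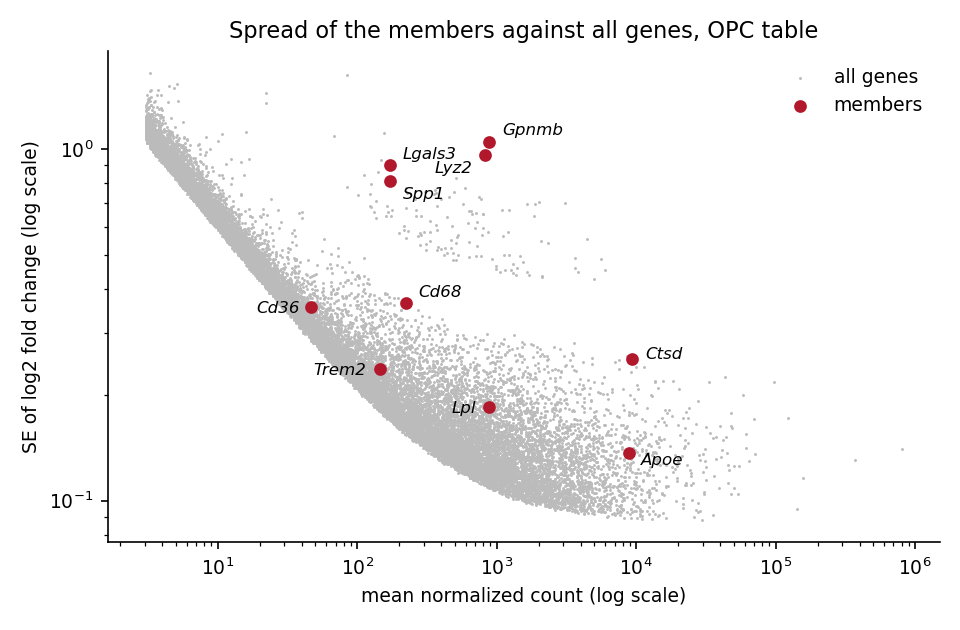
SE of the log2 fold change against the mean normalized count (both log axes) for all genes of the authors' deposited OPC table in grey and the members in red. Gpnmb, Lyz2, Lgals3 and Spp1 sit far above the band of other genes at SEs of 0.81 to 1.05, while Cd36, Trem2, Lpl and Apoe lie within it.

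Genes most like the members in fold and SE numbered 7 of 63 in the authors' deposited table. They were called higher at least 2-fold with an SE at least 3 times that of genes of similar mean. They comprised Gpnmb, Lyz2 and Lgals3 and 4 others. Ccl4, a chemokine of activated macrophages and microglia, stood at 7.0 in the authors' deposited table (SE 1.35), and Mmp12, macrophage metalloelastase, at 4.76 (SE 1.09). Cxcr4, a chemokine receptor, stood at 2.53 (SE 0.56) and Nkd1, an inhibitor induced by Wnt signalling, at 2.47 (SE 0.50) in the authors' deposited table. Under the negative binomial model the authors' deposited table implied a coefficient of variation of 86.5% for Mmp12, 47.2% for Cxcr4 and 42.1% for Nkd1. For Ccl4 it was 0%, at an implied wild-type level of 0.342 normalized counts, so its SE was no wider than counting error there. Likeness here is that of 1 fold and 1 SE per gene, since no pattern over libraries could be drawn from the authors' deposited table.

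Marker lists of the cell types that such cultures could hold gave no call for macrophages or microglia. Of 14 macrophage and monocyte markers in the authors' deposited table, 12 were above 0 and 0 were called, 5 having an unadjusted p under 0.05. Their median log2 fold change was 0.14, with implied sums of 6907 normalized counts in wild-type and 7381 in Apc-deleted cultures. The share of all genes at an unadjusted p under 0.05 was not counted, so here and below counts at that p have no scale. In the authors' deposited table Csf1r was listed at 0.01 (SE 0.16) and Cx3cr1 at 0.07 (SE 0.12), both named outside the naming rule given below. Among the markers highest in the macrophage libraries, C1qa stood at 0.17 (SE 0.14), C1qb at 0.27 (SE 0.31) and C1qc at 0.88 (SE 0.38) in the authors' deposited table. The markers with the smallest p in the authors' deposited table were Cd14 at 1.78 (SE 0.61), Adgre1 at 1.87 (SE 0.65), Aif1 at 0.40 (SE 0.15) and Ms4a7 at 1.59 (SE 0.60), with adjusted p between 0.346 and 0.574. Of 10 microglia markers 5 were above 0 and 0 called in the authors' deposited table, 3 having an unadjusted p under 0.05, with a median of 0.01 and implied sums of 1241 and 1669 normalized counts. The neutrophil markers, 1 of 10 above 0 and 0 called (0 also at an unadjusted p under 0.05), had a median of -0.30 in the authors' deposited table and implied sums of 619 and 547 normalized counts. Of 8 OPC markers 1 was called lower in the authors' deposited table, Gpr17 at -1.16, where 106 of 19333 genes were called in either direction. The implied sums of the OPC markers were 37232 and 37078 normalized counts. Markers of neurons summed to an implied 266750 and 256096 normalized counts and those of astrocytes to 44477 and 42601 in the authors' deposited table, 6 genes each with 0 called and 0 at an unadjusted p under 0.05. Both lists summed above the OPC markers in each genotype, in counts not divided by length. The name OPC is thus used only as the label of these cultures. The part of other cells in the members' differences was not tested.

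In the macrophage libraries the same 10 genes spanned more than 5 orders of magnitude, from Lyz2 to Cd36, and the order was Lyz2, Lgals3, Apoe, Cd68, Ctsd, Trem2, Spp1, Lpl, Gpnmb and Cd36. No neighbouring pair in that order had overlapping values over the 3 libraries. The members took 2.45%, 2.43% and 2.44% of all TPM in these libraries and 1.73% in the library labelled Th1. Counts of the macrophage libraries differed little beyond counting noise, with a chi-square per gene between 1.17 and 1.28 for genes under 1000 reads in a pair of libraries and between 1.29 and 2.53 over all genes, and the small SDs below are those of libraries this alike.

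**Figure D4:**
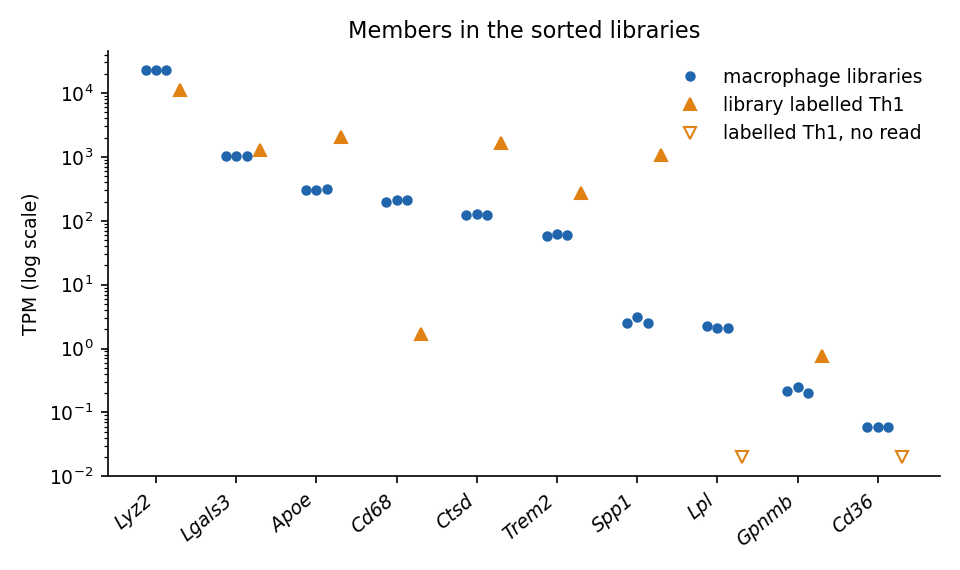
TPM (log axis) of each member in the 3 macrophage libraries (circles) and in the library labelled Th1 (triangles; open triangles mark no read and are placed at the foot of the axis). Spp1 and Ctsd stand at 1089 and 1643 TPM in the library labelled Th1, far above their macrophage values, and Cd68 far below at 1.68.

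Among the lysosomal and lytic members, Lyz2 read 22805, 22561 and 22670 TPM in the macrophage libraries (22679 ± 122, SD, n = 3) and was the fourth most abundant gene there. The library labelled Th1 held 11006 TPM of Lyz2, its ninth gene by rank, below every macrophage library. Cd68 read 200, 210 and 211 TPM in the macrophage libraries (207 ± 6.09, SD, n = 3) and 1.68 TPM in the library labelled Th1, where it rested on 6 reads (95% Poisson interval 2.20 to 13.1, which like the intervals below covers counting error only). Ctsd went the other way, with 123, 127 and 125 TPM (125 ± 2.0, SD, n = 3) in the macrophage libraries against 1643 TPM in the library labelled Th1. In TPM the library labelled Th1 lay outside the macrophage values for each of these 3 genes, and how many of all genes do so was not counted. For Lyz2 the direction depended on scaling, with a log2 fold change of -0.34 with TMM factors and 1.18 with DESeq2 size factors.

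Of the lipid-handling members, Apoe read 303, 307 and 310 TPM in the macrophage libraries (307 ± 3.34, SD, n = 3) and 2049 TPM in the library labelled Th1. Lpl was low, at 2.24, 2.13 and 2.12 TPM in the macrophage libraries (378 to 394 reads), and had no read in the library labelled Th1. Cd36 stood at 0.06 TPM in each macrophage library, on 9, 9 and 7 reads, and had no read in the library labelled Th1. A count of 0 allows up to 3 reads, or 0.983 CPM in the library labelled Th1, so the level of Cd36 found in the macrophage libraries would not have been detectable there.

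The surface receptor Trem2 read 57.2, 62.2 and 59.3 TPM in the macrophage libraries (59.6 ± 2.48, SD, n = 3) and 274 TPM in the library labelled Th1. Lgals3 read 1014, 1039 and 1044 TPM (1032 ± 16.1, SD, n = 3) against 1263 TPM in the library labelled Th1, above every macrophage library. Spp1 was nearly silent in the macrophage libraries, at 2.54, 3.07 and 2.55 TPM on 141, 175 and 144 reads, but stood at 1089 TPM on 4490 reads in the library labelled Th1. Gpnmb, the member with the largest difference in the OPC cultures, was close to absent from the sorted cells. Its values were 0.22, 0.25 and 0.20 TPM (36, 42 and 34 reads) in the macrophage libraries and 0.76 TPM in the library labelled Th1, on 9 reads (95% Poisson interval 4.12 to 17.1).

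Differences between the library labelled Th1 and the 3 macrophage libraries were tested with edgeR's quasi-likelihood method over 11447 genes, with Benjamini-Hochberg adjustment over all of them, a threshold of 4-fold and the spread of the macrophage libraries standing for that of the single library. Of the 9 members in the fit (Cd36 was too low), 5 were called higher, Spp1, Ctsd, Apoe, Trem2 and Gpnmb, where 13.7% of all genes were called higher. Cd68 and Lpl were called lower, 2 of 9, where 54.6% of all genes were. The log2 fold change was 9.31 for Spp1, 4.36 for Ctsd, 3.41 for Apoe, 2.89 for Trem2 and 2.38 for Gpnmb (adjusted p = 0.00106 by edgeR, 1 library against 3). It was -6.26 for Cd68, and Lpl, without a read, was at least 2.07-fold lower against a floor of 3 reads, the smallest bound over the scalings tried. Lgals3 at 0.97 and Lyz2 at -0.34 stayed within 4-fold. With library totals in place of TMM factors Gpnmb (0.88), Trem2 (1.39) and Apoe (1.92) no longer reached 4-fold, nor did Gpnmb (1.94) without a filter on low counts.

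Scaling set the level of these folds. The median of all tested genes lay at -5.61 on the log2 scale with TMM factors, at -4.32 with DESeq2 size factors and at -6.25 with library totals alone, values that depend on the prior count wherever the library labelled Th1 had no read. Over all genes 1567 were called higher and 6245 lower with TMM factors, 2009 and 3440 with DESeq2 size factors, 1098 and 8165 with library totals alone, and 1929 and 2488 by DESeq2's Wald test. The direction of Lyz2 turned to 1.18 with DESeq2 size factors, and that of Lgals3 to -0.52 with library totals. Relative to the median of all genes, Spp1 lay 14.06 to 15.15 higher over the 3 scalings, Ctsd 9.12 to 10.20, Apoe 8.17 to 9.25, Trem2 7.64 to 8.73, Gpnmb 7.13 to 8.22, Lgals3 5.73 to 6.81 and Lyz2 4.41 to 5.50. Cd68 was the member with reads that lay below that median, at -1.50 to -0.42. All these distances depend on the prior count as the median does, and on the depth of the library labelled Th1. Genes with a read there had a median of 2.025 reads.

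Genes of the same macrophage level give a scale for these reads. Of 931 other genes within 1.25-fold of Spp1 in mean macrophage TPM, 1 had as many reads as Spp1 or more in the library labelled Th1, and 417 had none. That gene was Srebf2, with 4537 reads. Likewise 1 of 68 genes at the level of Apoe, Rps20, had as many reads as Apoe or more. Srebf2 and Rps20 are named after their values were seen. Trem2 was matched or passed by 44 of 206 genes and Gpnmb by 50 of 695. For Cd68, 38 of 108 genes had as few reads or fewer, 18 of them none, against a median of 264.5 reads. No read was found for 419 of 959 genes at the level of Lpl and for 382 of 501 at the level of Cd36. Lpl stood at 16.5 CPM in the macrophage libraries by library totals, above the 0.983 CPM that 3 reads make in the library labelled Th1, while Cd36 stood under it at 0.356 CPM.

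Members were also set against Lyz2. In the sorted cells this is a ratio of reads within a library, which does not depend on scaling, and in the OPC cultures it is a ratio of 2 gains between genotype means, which rests on the authors' normalization and on the group sizes assumed. In the OPC cultures the gain in Gpnmb from wild type to Apc-deleted, as implied by the authors' deposited table, was 109% of the gain in Lyz2. In the macrophage libraries Gpnmb had 0.00419% of the reads of Lyz2, and in the library labelled Th1 0.0277%. The gain in Spp1 implied by the authors' deposited table was 17.5% of that in Lyz2, against 13.8% of Lyz2 reads in the library labelled Th1 and 0.0172% in the macrophage libraries. For Lgals3 the 3 values lay closer, 19.1% by the authors' deposited table, 15.8% in the library labelled Th1 and 6.37% in the macrophage libraries. Cd68 was at 14.6% of the Lyz2 gain by the authors' deposited table, 1.12% of Lyz2 reads in the macrophage libraries and 0.0185% in the library labelled Th1. Cd36 was at 2.72% by the authors' deposited table and 0.000935% in the macrophage libraries. The ratios are of counts not divided by length, so they compare data sets for 1 gene and not genes with each other. They mix a difference between genotypes with levels in sorted cells, and carry no test.

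**Figure D5:**
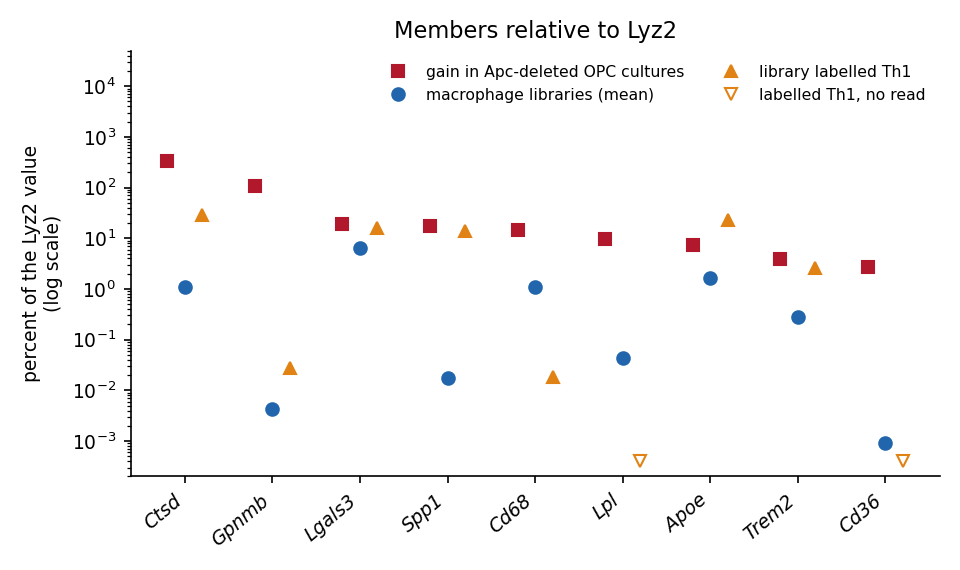
Each member as a percent of Lyz2 (log axis): the gain in implied normalized counts in Apc-deleted OPC cultures (squares), reads in the macrophage libraries (circles, mean of 3) and reads in the library labelled Th1 (triangles, open where there was no read). For Gpnmb the square stands at 109% and the circle at 0.00419%, while for Lgals3 all symbols lie between 6.37% and 19.1%.

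Of the other genes most like the members in the OPC table, Ccl4 was abundant in the macrophage libraries, at 118 ± 1.59 TPM (SD, n = 3), and stood at 360 TPM in the library labelled Th1. Mmp12 was at 0.01 TPM on average in the macrophage libraries, with no read in the library labelled Th1, and Nkd1 at 0.0067 TPM. Cxcr4 lay between these, at 3.82 ± 0.091 TPM (SD, n = 3) in the macrophage libraries and 40.6 TPM in the library labelled Th1. Mmp12 thus shared with Gpnmb a high fold in the authors' deposited OPC table and a level near 0 in the sorted cells.

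Lyz2 shares reads with its neighbour and near copy Lyz1, whose transcript of 1263 bases was 92.0% identical to that of Lyz2 (1316 bases) over aligned columns, so the division of reads between them is uncertain. Lyz1 took 8.37% of lysozyme reads in the macrophage libraries and 11.8% in the library labelled Th1. In the authors' deposited OPC table the share of Lyz1 in the summed means was 0.614%, and its log2 fold change was 4.86 (SE 1.53, adjusted p = 0.179), beside 4.33 for Lyz2.

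Of 25 genes of lipid uptake, storage and efflux in the authors' deposited table, 19 were above 0, with a median of 0.15, and 4 had an unadjusted p under 0.05. In this list 2 were called higher, where 0.393% of all genes were, and 0 lower. This list and those below were chosen with earlier results of these data known, so nothing is read from such counts. The called genes were a scavenger receptor and a secreted scavenger protein of macrophages, Msr1 at 2.54 (SE 0.64, adjusted p = 0.0172) and Cd5l at 2.87 (SE 0.58, adjusted p = 0.000325), from implied levels of 11.8 to 68.2 and 8.18 to 59.9 normalized counts in the authors' deposited table. The fatty acid carrier Fabp4 and the lipid droplet protein Plin2 followed in the authors' deposited table at 1.42 (SE 0.47) and 0.35 (SE 0.15), both short of the threshold.

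Of 24 genes of the lysosome and its cathepsins, 19 were above 0 and 0 were called in the authors' deposited table (4 at an unadjusted p under 0.05), with a median of 0.14. The smallest p among them in the authors' deposited table belonged to Ctss at 0.72 (SE 0.24), Ctsb at 0.51 (SE 0.18), Ctsz at 0.62 (SE 0.24) and Atp6v0d2 at 2.47 (SE 1.03). Of 23 phagocytic receptors and bridging proteins 18 were above 0, 9 had an unadjusted p under 0.05 and 1 was called lower in the authors' deposited table. That gene was Elmo1, a cytoskeletal adaptor of engulfment, at -1.04 (SE 0.17, adjusted p = 1.16e-06). Over all genes the authors' deposited table called 106 of 19333 in either direction, 76 of them higher. Tyrobp, the signalling partner of Trem2, was listed at 1.65 (SE 0.48, adjusted p = 0.0845) in the authors' deposited table. Of 15 genes of damage-associated myeloid cells, 11 were above 0 in the authors' deposited table with a median of 0.51, and 8 had an unadjusted p under 0.05. Mmp12 and Cybb were called higher, 2 of 15, where 0.393% of all genes were, and the tetraspanin Cd9 was called lower. Cybb, the catalytic subunit of the phagocyte oxidase, stood at 1.32 (SE 0.36, adjusted p = 0.0499) and Cd9 at -0.96 (SE 0.17) in the authors' deposited table. Among 12 relatives of the members by sequence family, 9 were above 0 and 0 were called in the authors' deposited table (2 at an unadjusted p under 0.05).

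In the sorted cells 21 of 28 lipid genes reached 1 TPM in every macrophage library, and 8 did in the library labelled Th1. The most abundant in the macrophage libraries were the lipoprotein component Apoc2 at 253 ± 4.48 TPM (SD, n = 3), the lysosomal cholesterol carrier Npc2 at 121 ± 4.0 TPM, Fabp5 at 93.2 ± 2.34 TPM and Apoc1 at 43.4 ± 1.25 TPM. Apoc2 had no read in the library labelled Th1, where its neighbour Apoe was higher than in the macrophage libraries. Of the lysosomal genes 21 of 24 reached 1 TPM in the macrophage libraries and 15 in the library labelled Th1, with Ctss at 707 ± 2.18 and 17.1 TPM and Ctsb at 137 ± 1.01 and 1362 TPM in these groups. Ctsb thus stood on the side of Ctsd, and Ctss on that of Cd68. Of the 22 lysosomal genes in the edgeR fit 7 were called higher in the library labelled Th1 and 14 lower, and of 26 lipid genes 5 and 17, against 13.7% and 54.6% of all genes. The phagocytic receptors gave 5 higher and 9 lower of 21, the damage-associated genes 3 and 7 of 15, and the relatives of the members 3 and 6 of 11. Tyrobp stood at 10627 ± 284 TPM (SD, n = 3) in the macrophage libraries and at 784 TPM in the library labelled Th1, while Trem2 was 4.61 times as high in TPM in the latter.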

How the data were processed

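RNA was extracted with Trizol and sequenced as paired 150-bp reads on the Illumina HiSeq platform, per the labels' protocols. The build was GRCm38, per the submitters' processing notes. The aligner and counting tool: not given in the sources used here. Raw files of 5 OPC samples were replaced, per a note to the series.

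Of the OPC libraries the authors deposited a normalized count mean (signal), a log2 fold change with its SE, a statistic (score) and p-values, per the file headers. For the sorted cells the authors deposited TPM and read counts, which are estimated counts, since part of them are not whole. 5 columns of FPKM or of empty values were not used. Macrophage columns were assigned to the group, not to a replicate.

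The members and gene lists were chosen with earlier results of these data known. The text names all 10 members, list genes past the threshold, up to 4 per list by smallest deposited p or highest macrophage TPM, and the genes most like the members. Csf1r and Cx3cr1 are named besides. Estimated counts were rounded and tested with edgeR 4.0.16 (quasi-likelihood, TMM, filterByExpr, adjusted p under 0.05 and at least 4-fold). The script was tested on simulated data. DESeq2 1.42.0 gave alternatives. Adjusted p-values for OPCs are the authors' own. Exon lengths and gene coordinates are from GENCODE M21 and promoters from RefSeq GRCm38.p6. R 4.3.3, Python 3.11.15, pandas 2.3.3, numpy 2.4.6, scipy 1.17.1, Biopython 1.88 and matplotlib 3.10.9 were used.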

Additional observations from a re-analysis of the deposited data

How the results depend on the processing

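For the library labelled Th1 against the macrophage libraries, DESeq2's Wald test called 4417 genes in all and 2488 lower, against 7812 and 6245 with edgeR, and DESeq2 size factors in edgeR called 3440 lower. With library totals only, a setting chosen after seeing the data, 4 members were called, 2 of them higher, against 7 and 5. Gpnmb (0.88), Apoe (1.92) and Trem2 (1.39) then fell short of 4-fold and Lgals3 turned to -0.52, and without a filter on low counts Gpnmb was at 1.94. With DESeq2 size factors and with the Wald test Lyz2 turned to 1.18 and Lgals3 passed 4-fold at 2.49. The cause was not tested. For single members 143 other values were counted as the same, by direction and side of the threshold or by the spread between libraries where these apply. Part of these values could not differ, since a threshold of 2-fold leaves each fold change as it is. The implied OPC levels and coefficients among them have no threshold and no spread between libraries, so the count is no measure of stability. The same 5 OPC members passed when only 15897 genes with a mean of at least 10 normalized counts were adjusted again, and 6 passed at an adjusted p under 0.1. A setting with 2 wild-type libraries, since 1 had no replaced raw file, was planned for the implied levels. For the implied coefficients of variation it was added after seeing the data. With it the authors' deposited table implied 1432 normalized counts of Gpnmb in Apc-deleted cultures, against 1694, and a coefficient of 78.9%, against 88.6%. No paired analysis was possible because the OPC table holds no value per library. The depth of the library labelled Th1 limits every value at or under 3 reads, and its single library gives no spread of its own.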
